A study of Arabidopsis thaliana with 6 samples.

Results

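The Aux/IAA repressors and the auxin response factors (ARFs) are the families that carry the transcriptional response to auxin, and their transcripts were followed in root tips of the *an3* mutant and of the wild type Columbia (Col). The members were the 29 Aux/IAA genes *IAA1* to *IAA20* and *IAA26* to *IAA34* and the 15 genes *ARF1* to *ARF11* and *ARF16* to *ARF19*, found by their AGI locus. All 44 had a row of their own among the 33201 rows of the expression table. The *an3* group is a loss-of-function line of *ANGUSTIFOLIA 3* (*AN3*/*GIF1*), which encodes a co-activator partnered with the GRF family of transcription factors, and the Col group is its wild type; the allele is not named in the labels. Each group had 3 samples, for which the last 5 mm or so of the root was collected after 5 days of growth. The table gives 1 FPKM value per genotype (a read count normalised to transcript length and to the number of mapped reads) for its 3 samples together. The spread between replicates and the depth of each library are therefore unknown, no member could be tested from these values, and every difference below is a description without an error. The table also holds columns of the authors' own comparison of the genotypes, a fold change and a q-value, which were not used here.

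Auxin acts by removing repressors. At low auxin, Aux/IAA proteins bind ARFs on the promoters of auxin response genes and recruit the co-repressor TOPLESS, and at high auxin the receptors TIR1 and AFB bind a short degron in the Aux/IAA protein, which is then ubiquitinated and degraded. The freed activating ARFs switch on their targets, among which are many Aux/IAA genes themselves. In the root this loop is known for its roles in the stem cell niche, the size of the meristem, vascular patterning and lateral roots.

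*AN3* itself had 2.55 FPKM in *an3* and 21.5 FPKM in Col, so 11.9% of the Col level remained. The labels speak of meristematic tissue, but markers of differentiated cells were abundant as well. The 8 Casparian strip genes of the endodermis summed to 2431 FPKM in *an3* and 1950 FPKM in Col, and the 9 root hair and epidermis genes to 924 FPKM in *an3* and 1143 FPKM in Col. The 7 genes of dividing cells and the meristem summed to 63.6 FPKM in *an3* and 61.5 FPKM in Col, the 9 vascular genes to 33.7 FPKM in *an3* and 33.9 FPKM in Col, and the 4 root cap genes to 110.4 FPKM in *an3* and 101.9 FPKM in Col. The 4 genes of photosynthetic tissue summed to 28.8 FPKM in *an3* and 73.6 FPKM in Col, and each of them was past 1.5-fold lower. Among all rows averaging 1 FPKM or more, 3.06% were past 1.5-fold lower. Of the 8 Casparian strip genes, 6 had a log2 ratio above 0. The other 2 were below 0, *MYB36* at -0.05 and *SGN3* at -0.14. *CASP1*, the highest of the 8, had 891 FPKM in *an3* and 681 FPKM in Col. All 9 root hair and epidermis genes had a log2 ratio below 0, where 8719 of the 17229 rows averaging 1 FPKM or more did. Of these 9, *RHD6*, a regulator of root hair formation, was barely past 1.5-fold lower at -0.590, where 1.5-fold is 0.585 either way. *PLT1*, a regulator of the stem cell niche, was barely past 1.5-fold higher at 0.586, with a mean of 1.21 FPKM. From 1 to 5 FPKM, 8.18% of all rows were past 1.5-fold higher. Of the 7 genes on the list of *PLT1*, 4 had a ratio above 0 and 3 below, with *PLT2* at -0.10. None of the genes on these marker lists was at 0 in both genotypes. Their part in the values below was not tested.

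Most Aux/IAA proteins carry the degron, and its core of the residues Gly-Trp-Pro-Pro (GWPP) was found in 23 of the 29 proteins, translated from the RefSeq gene models of TAIR10.1. The 6 without it were those of *IAA20*, *IAA30*, *IAA31*, *IAA32*, *IAA33* and *IAA34*. The motif LxLxL (x for any residue), by which Aux/IAA proteins contact TOPLESS, was found in 28 of the 29, and *IAA33* was the member without it. The 39 coding bases around the degron are shown for *IAA4*, for its nearest relatives and for the abundant *IAA17*, *IAA9*, *IAA16*, *IAA7* and *IAA28*, since these members carry most of the values below. Capitals mark the codons of the core.

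IAA4: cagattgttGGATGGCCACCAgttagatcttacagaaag
IAA3: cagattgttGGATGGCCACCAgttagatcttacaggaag
IAA1: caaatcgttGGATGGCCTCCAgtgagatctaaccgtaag
IAA2: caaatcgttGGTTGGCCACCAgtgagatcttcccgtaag
IAA17: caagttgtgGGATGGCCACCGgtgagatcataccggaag
IAA9: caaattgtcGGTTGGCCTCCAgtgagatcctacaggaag
IAA16: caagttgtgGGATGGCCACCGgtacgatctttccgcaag
IAA7: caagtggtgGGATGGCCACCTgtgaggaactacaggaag
IAA28: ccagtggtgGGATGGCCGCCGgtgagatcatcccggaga

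The *IAA3* stretch differed from that of *IAA4* at 1 base, those of *IAA1*, *IAA2* and *IAA9* at 7 bases each, that of *IAA17* at 8, that of *IAA16* at 9, that of *IAA7* at 11 and that of *IAA28* at 14. Over the aligned protein, IAA4 was 81.0% identical to IAA3, 73.6% to IAA1 and 72.3% to IAA2, and 26.2% to IAA33. No pair of members shared an exact run of 75 bases or more in their transcripts, against a read length of 100 bases, and the pairs with a shared run of 40 bases were *IAA3* with *IAA4*, *IAA7* with *IAA14* and *IAA20* with *IAA30*.

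A gene was set beside all others by its log2 ratio of *an3* over Col, computed after adding 0.1 FPKM to each value, so that the ratios of low genes come out smaller. Ratios were read for the 33 members that averaged 1 FPKM or more over both genotypes, 20 Aux/IAA genes and 13 ARF genes, and a gene was counted as different where it was past 1.5-fold. None of the 33 was past 1.5-fold higher in *an3*, against 3.89% of the 17229 rows of that level, and *IAA33* alone was past 1.5-fold lower, against 3.06% of these rows. Scaled to equal column totals, the shares over all rows were 3.22% higher and 3.95% lower, and the members' counts were as before. The median log2 ratio was 0.08 over the Aux/IAA genes and -0.03 over the ARF genes, beside -0.0034 over all rows of that level. Both counts of members lay near the shares of all rows.

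**Figure D1:**
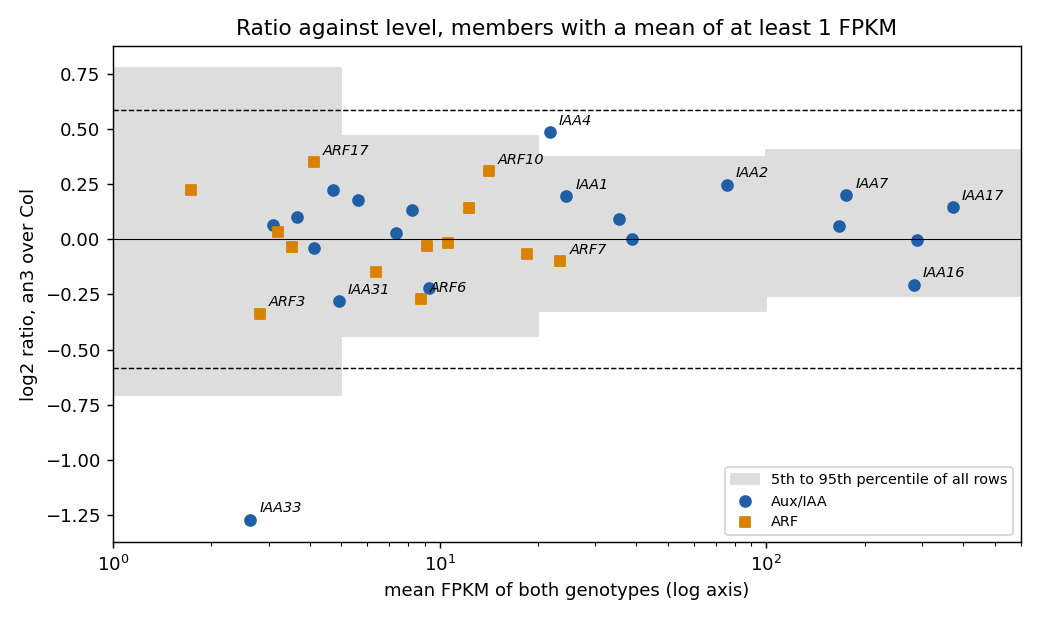
Log2 ratio of *an3* over Col (vertical axis) against the mean FPKM of both genotypes (horizontal log axis) for the 20 Aux/IAA genes (circles) and 13 ARF genes (squares) that averaged 1 FPKM or more. The grey area spans the 5th to 95th percentile of all rows in 4 ranges of level and the dashed lines mark 1.5-fold. By definition the grey area leaves out the lowest 5% and the highest 5% of all rows in each range. *IAA4* at 0.48 and *IAA33* at -1.27 lie outside the grey area, and the other members lie within it.

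*IAA4* (AT5G43700, chromosome 5), also named *AtAUX2-11*, had the highest ratio of the Aux/IAA genes at or above 1 FPKM. It had 25.4 FPKM in *an3* and 18.1 FPKM in Col, a difference of 7.26 FPKM, a fold of 1.40 and a log2 ratio of 0.48, and it remained under 1.5-fold. Among the 5762 rows whose mean lay between 0.5 and 2 times its own, 3.12% had a ratio at or above it. In the range from 20 to 100 FPKM, where it lies, the 95th percentile of all rows was a log2 ratio of 0.37. From 5 to 20 FPKM that percentile was 0.47. *IAA4*, with a mean of 21.8 FPKM, lies near the edge between these ranges. Its place in the family by level was the same in both genotypes, rank 10 of 29, and it made up 1.62% of the summed Aux/IAA FPKM in *an3* and 1.20% in Col. The next ratios of the family were those of *IAA2*, at 0.25, and *IAA10*, at 0.22.

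The 4 closely related genes *IAA1* to *IAA4*, small early auxin response genes, summed to 137.8 FPKM in *an3* and 114.3 FPKM in Col, a fold of 1.20. *IAA2* (AT3G23030, chromosome 3) had 82.2 FPKM in *an3* and 69.3 FPKM in Col, and it supplied the largest part of that difference of 23.4 FPKM. *IAA1* (AT4G14560, chromosome 4) had 26.1 FPKM in *an3* and 22.8 FPKM in Col, a log2 ratio of 0.19. *IAA3* (*SHY2*, AT1G04240, chromosome 1), a repressor known for setting the size of the root meristem where auxin and cytokinin meet, had 4.07 FPKM in *an3* and 4.19 FPKM in Col, a log2 ratio of -0.04. The closest relative of *IAA4* by sequence thus had a lower level in both genotypes and did not share its higher value. Of these genes, *IAA3* is overlapped by a gene model on the other strand, and *IAA1*, *IAA2* and *IAA4* are not.

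Of these 4 genes, 3 stand head to head in the genome with a gene of the subclade of *IAA7*, *IAA14*, *IAA16* and *IAA17*, with no protein-coding gene between them. On chromosome 3, *IAA2* had a log2 ratio of 0.25 and its neighbour *IAA7* (*AXR2*, AT3G23050) of 0.20, with 188 FPKM in *an3* and 164 FPKM in Col. On chromosome 4, *IAA1* had a log2 ratio of 0.19 and *IAA14* (*SLR*, AT4G14550), the repressor of lateral root initiation, of 0.09, with 36.6 FPKM in *an3* and 34.3 FPKM in Col. On chromosome 1, *IAA3* had a log2 ratio of -0.04 and *IAA17* (*AXR3*, AT1G04250) of 0.15. The level of *IAA17* was 391 FPKM in *an3* and 354 FPKM in Col, so the neighbours on chromosome 1 were the least alike in level. *IAA4* has no member beside it.

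The Aux/IAA total was carried by few genes. *IAA17*, *IAA9*, *IAA16*, *IAA7*, *IAA28* and *IAA2*, the 6 highest, held 88.3% of the summed Aux/IAA FPKM in *an3* and 88.7% in Col. *IAA17* was the highest in both genotypes, with 25.0% of the sum in *an3* and 23.4% in Col. *IAA9* (AT5G65670), whose relative in tomato is known for leaf shape and fruit set, had 289.7 FPKM in *an3* and 291 FPKM in Col and was nearly level. A gene model on the other strand overlaps *IAA9*. *IAA16* (AT3G04730) had 262 FPKM in *an3* and 303 FPKM in Col, a log2 ratio of -0.21. It stood behind *IAA17* and *IAA9* in *an3*, and behind *IAA17* alone in Col. Among the 957 rows within 0.5 to 2 times its mean, 7.31% had a ratio at or below it. *IAA28* (AT5G25890), a repressor known from lateral root founder cells, had 170.2 FPKM in *an3* and 163 FPKM in Col. *IAA17* differed by 37.7 FPKM and *IAA16* by -40.3 FPKM, and their subclade of 4 summed to 878 FPKM in *an3* and 854 FPKM in Col, a log2 ratio of 0.04 that turned to -0.02 with equal column totals.

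**Figure D2:**
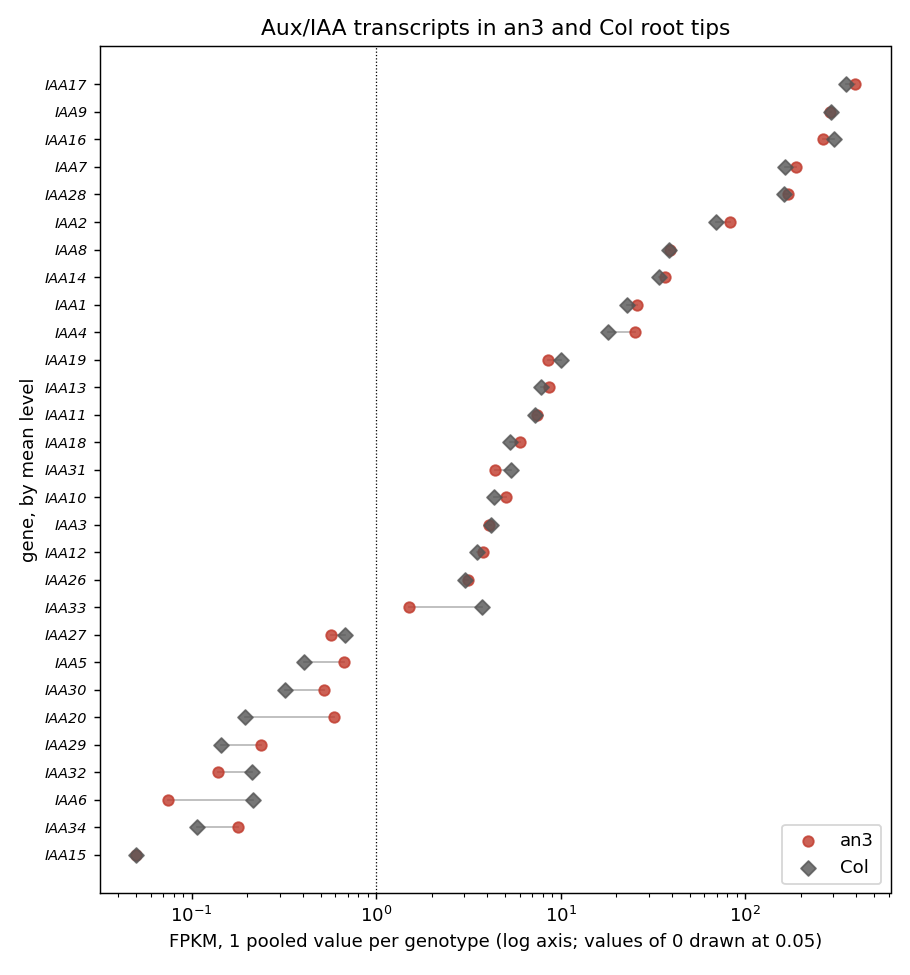
FPKM of the 29 Aux/IAA genes (horizontal log axis, with values of 0 drawn at 0.05) in *an3* (circles) and Col (diamonds), 1 pooled value per genotype, ordered by mean level from *IAA17* at the top. The dotted line marks 1 FPKM. The circle of *IAA4* lies to the right of its diamond at 25.4 against 18.1 FPKM, and that of *IAA33* to the left at 1.4999 against 3.76 FPKM.

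Over all 29 genes, Aux/IAA transcripts summed to 1566 FPKM in *an3* and 1514 FPKM in Col, a fold of 1.03. The FPKM columns themselves summed to 869161 in *an3* and 833287 in Col, so the family made up 0.180% of the *an3* column and 0.182% of the Col column, and its direction turns with the scaling. Of the 20 genes at or above 1 FPKM, 14 had a log2 ratio above 0, or 70.0%, beside 49.4% of all rows. Scaled to equal column totals, it was 12 of the 20, beside 38.9% of all rows. The genes are not independent of each other, and nothing was tested on this count.

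**Figure D3:**
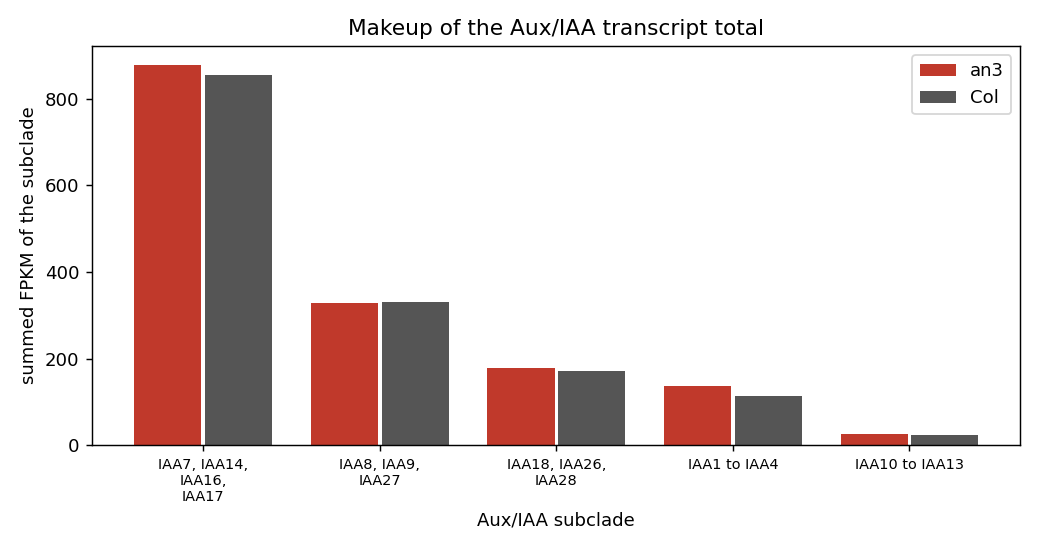
Summed FPKM (vertical axis from 0) of the 5 largest Aux/IAA subclades in *an3* (left bar of each pair) and Col (right bar), 1 pooled value per genotype and no error bars. The subclade of *IAA7*, *IAA14*, *IAA16* and *IAA17* stands at 878 and 854 FPKM, and that of *IAA1* to *IAA4* at 137.8 and 114.3 FPKM.

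Among the other Aux/IAA genes with a degron, *IAA8* (AT2G22670) had 38.9 FPKM in *an3* and 38.8 FPKM in Col. In the subclade of *IAA10* to *IAA13*, all 4 ratios were above 0, beside 49.4% of all rows, though that of *IAA11* turned with equal column totals. *IAA12* (*BDL*, AT1G04550), known as the repressor of *MONOPTEROS* in the embryo, had 3.79 FPKM in *an3* and 3.52 FPKM in Col. *IAA13* (AT2G33310) had 8.61 FPKM in *an3* and 7.84 FPKM in Col, and *IAA10* (AT1G04100) had 5.08 FPKM in *an3* and 4.34 FPKM in Col. *IAA11* (AT4G28640) had a log2 ratio of 0.03. Log2 ratios were 0.18 for *IAA18* (AT1G51950) and 0.06 for *IAA26* (AT3G16500). *IAA19* (*MSG2*, AT3G15540), an early auxin response gene known from tropic growth, had 8.56 FPKM in *an3* and 9.99 FPKM in Col, a log2 ratio of -0.22. With equal column totals, 3 members at or above 1 FPKM turned below 0, *IAA8*, *IAA11* and *ARF9*, and *IAA28* came to lie at 0.

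*IAA33* (AT5G57420, chromosome 5) had the lowest ratio of the members at or above 1 FPKM. It had 1.4999 FPKM in *an3* and 3.76 FPKM in Col, so 0.399 of the Col level, a log2 ratio of -1.27. Among the 4258 rows within 0.5 to 2 times its mean, 0.986% had a ratio at or below it, while the 5th percentile of all rows from 1 to 5 FPKM was -0.70. It ranked 20 of 29 by level in *an3* and 18 in Col. With 1 FPKM added in place of 0.1, its log2 ratio was -0.93. Non-canonical members such as *IAA33* are not removed through TIR1 and AFB, for want of the degron. In whole root tips, fewer cells that express a gene and less of its RNA per cell cannot be told apart. *IAA31* (AT3G17600), the other member without the degron core at or above 1 FPKM, had 4.42 FPKM in *an3* and 5.40 FPKM in Col, a log2 ratio of -0.28. All 6 members without the core summed to 7.36 FPKM in *an3* and 9.99 FPKM in Col, and without *IAA33* to 5.86 FPKM in *an3* and 6.23 FPKM in Col.

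The 9 Aux/IAA genes under 1 FPKM had levels up to 0.670 FPKM in *an3* and 0.674 FPKM in Col. *IAA15* (AT1G80390) was listed at 0 in both. *IAA20* (AT2G46990) had 0.589 FPKM in *an3* and 0.194 FPKM in Col, and *IAA30* (AT3G62100) had 0.524 FPKM in *an3* and 0.319 FPKM in Col. Both are known as non-canonical members with a role in the vascular tissue of the root. *IAA5* (AT1G15580) had 0.670 FPKM in *an3* and 0.406 FPKM in Col, *IAA6* (AT1G52830) had 0.0744 FPKM in *an3* and 0.215 FPKM in Col, and *IAA27* (AT4G29080) had 0.571 FPKM in *an3* and 0.674 FPKM in Col. *IAA29* (AT4G32280), *IAA32* (AT2G01200) and *IAA34* (AT1G15050) lay between 0.107 and 0.238 FPKM in both. At such levels a few reads set the value, and no direction is read from them.

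ARF transcripts were lower than Aux/IAA transcripts as a class and balanced between the genotypes. The 15 ARF genes summed to 118.9 FPKM in *an3* and 119.1 FPKM in Col, and the Aux/IAA sum was 13.2 times the ARF sum in *an3* and 12.7 times in Col. The 5 ARFs known as activators, with a middle region rich in glutamine, were *ARF5* to *ARF8* and *ARF19*. Glutamine made up 6.98% to 15.5% of their residues and 2.24% to 5.98% of those of the other 10 ARFs. The activators summed to 50.6 FPKM in *an3* and 54.8 FPKM in Col, a fold of 0.924. All 5 had a log2 ratio below 0, from -0.27 to -0.02, where 8719 of the 17229 rows at or above 1 FPKM did. *ARF19* at -0.02 and *ARF5* at -0.04 were nearly level. The other ARFs summed to 68.3 FPKM in *an3* and 64.3 FPKM in Col, a fold of 1.06. Of the 8 at or above 1 FPKM, 5 had a ratio above 0, beside 49.4% of all rows. The ratio of *ARF9* was above 0 only without scaling to equal column totals. Activator transcripts thus stood to the others as 0.741 in *an3* and as 0.852 in Col. Few genes made most of this shift. The activators differed by -4.18 FPKM, with *ARF6* at -1.67 and *ARF7* at -1.63 FPKM. The other ARFs differed by 4.03 FPKM, with *ARF10* at 3.04 and *ARF17* at 1.02 FPKM.

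Among the activators, *ARF7* (*NPH4*, AT5G20730) was the highest ARF of all, with 22.6 FPKM in *an3* and 24.2 FPKM in Col. *ARF19* (AT1G19220), its partner in lateral root formation, had 10.6 FPKM in *an3* and 10.7 FPKM in Col. *ARF6* (AT1G30330) had 7.91 FPKM in *an3* and 9.57 FPKM in Col, the lowest ratio of the activators at -0.27. *ARF8* (AT5G37020), which acts with *ARF6* in flower maturation, had 6.03 FPKM in *an3* and 6.70 FPKM in Col. *ARF5* (*MONOPTEROS*, AT1G19850), required to form the embryonic root, had 3.497 FPKM in *an3* and 3.59 FPKM in Col. Each of the 5 ratios lay within the 5th to 95th percentile of all rows of its level. *ARF5* and *ARF7* are overlapped by a gene model on the other strand and *ARF19* by one on its own.

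**Figure D4:**
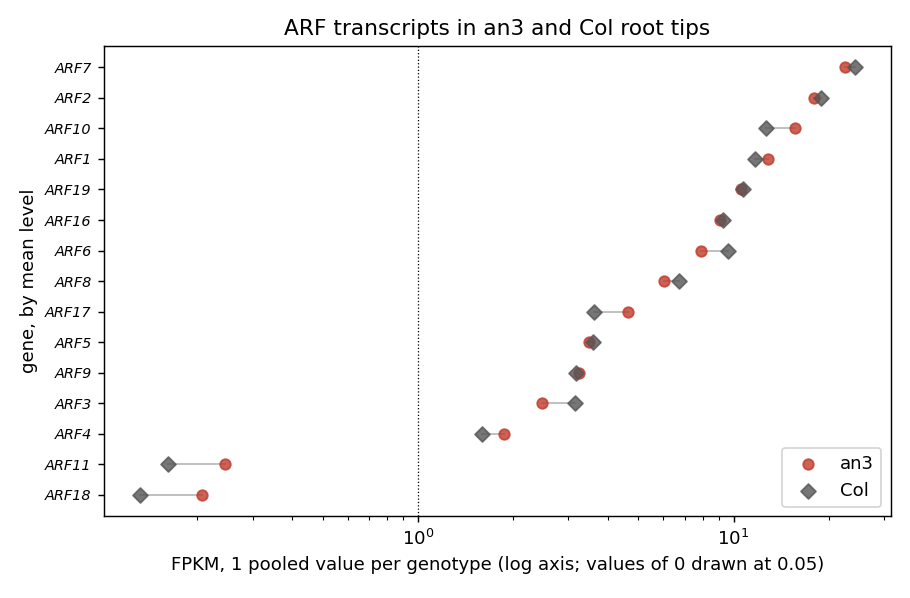
FPKM of the 15 ARF genes (horizontal log axis) in *an3* (circles) and Col (diamonds), 1 pooled value per genotype, ordered by mean level from *ARF7* at the top. The dotted line marks 1 FPKM. The circles of *ARF10* and *ARF17* lie to the right of their diamonds, and those of *ARF6* and *ARF3* to the left.

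ARF transcripts are also cut under the direction of microRNAs. The pairing is shown because the ARFs with the highest ratios at or above 1 FPKM belong to 1 such class. That choice was made after their values were seen. *ARF10*, *ARF16* and *ARF17* are known targets of miR160, and *ARF6* and *ARF8* of miR167. The mature sequences are given with the seed, bases 2 to 8, in capitals, and the sites with paired bases in capitals and unpaired ones, G:U included, in lower case. The RefSeq transcripts of *ARF10*, *ARF16* and *ARF17* held a window with 2, 3 and 1 unpaired bases to miR160, and those of *ARF6* and *ARF8* one with 4 and 3 to miR167, all within coding sequence. The best window of each other ARF had at least 8 unpaired bases to miR160 and 7 to miR167.

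miR160a-5p: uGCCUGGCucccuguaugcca
ARF10 site: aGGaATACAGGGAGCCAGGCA
ARF16 site: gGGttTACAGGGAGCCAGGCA
ARF17 site: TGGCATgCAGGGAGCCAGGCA
miR167a-5p: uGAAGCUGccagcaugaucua
ARF6 site: gAGATCAgGCTGGCAGCTTgt
ARF8 site: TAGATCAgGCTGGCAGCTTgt

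Of the miR160 class, *ARF17* (AT1G77850) had 4.64 FPKM in *an3* and 3.62 FPKM in Col, a log2 ratio of 0.35, the highest among the ARFs at or above 1 FPKM. *ARF10* (AT2G28350), which with *ARF16* shapes the root cap, had 15.7 FPKM in *an3* and 12.6 FPKM in Col, a log2 ratio of 0.31. *ARF16* (AT4G30080), however, had 9.05 FPKM in *an3* and 9.25 FPKM in Col, a log2 ratio of -0.03. The class as a whole summed to 29.4 FPKM in *an3* and 25.5 FPKM in Col. Among rows of like level, 87.2% had a ratio at or below that of *ARF17* and 89.9% at or below that of *ARF10*. In the miR167 class, log2 ratios were -0.27 for *ARF6* and -0.15 for *ARF8*. Both genes are also activators, all 5 of which had a ratio below 0. The microRNAs themselves were not analysed here, and their part in these values was not tested.

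*ARF2*, *ARF3* and *ARF4* are targets of the trans-acting small RNAs from *TAS3*. *ARF2* (AT5G62000), the second highest ARF, had 18.0 FPKM in *an3* and 18.9 FPKM in Col. *ARF3* (*ETTIN*, AT2G33860), which lacks the domain that binds Aux/IAA proteins, had 2.47 FPKM in *an3* and 3.15 FPKM in Col, a log2 ratio of -0.34 and the lowest of the ARFs. *ARF4* (AT5G60450) had 1.87 FPKM in *an3* and 1.59 FPKM in Col, a log2 ratio of 0.22. The ratios of these 3 genes did not share a direction. Among the remaining repressor-type ARFs, *ARF1* (AT1G59750) had 12.9 FPKM in *an3* and 11.7 FPKM in Col, and *ARF9* (AT4G23980) had 3.24 FPKM in *an3* and 3.171 FPKM in Col. *ARF11* (AT2G46530) had 0.245 FPKM in *an3* and 0.162 FPKM in Col, and *ARF18* (AT3G61830) had 0.207 FPKM in *an3* and 0.132 FPKM in Col.

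Promoters of auxin-induced genes carry the auxin response element TGTCTC, and ARFs bind TGTCGG more strongly. Both were searched on both strands, along with TGTCAGG, which the GRF family member GRF7 is known to bind, in the 250 bases before the start of each RefSeq gene model. TGTCTC was in 9 of the 29 Aux/IAA windows and 1 of the 15 ARF windows, against 10.9% of 27443 protein-coding genes, and TGTCGG was in 6 Aux/IAA and 2 ARF windows, against 4.16%. TGTCAGG was in none of the 44, against 0.754% of all. Of the 9 Aux/IAA genes with TGTCTC only 3, *IAA1*, *IAA8* and *IAA19*, were at or above 1 FPKM, with log2 ratios of 0.19, 0.00 and -0.22. The windows of *IAA1*, *IAA4* and *IAA19* are shown as these genes carry 1, none and 3 copies of TGTCTC. Capitals mark matches to the searched motifs, and GAGACA and CCGACA are TGTCTC and TGTCGG on the other strand.

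IAA1: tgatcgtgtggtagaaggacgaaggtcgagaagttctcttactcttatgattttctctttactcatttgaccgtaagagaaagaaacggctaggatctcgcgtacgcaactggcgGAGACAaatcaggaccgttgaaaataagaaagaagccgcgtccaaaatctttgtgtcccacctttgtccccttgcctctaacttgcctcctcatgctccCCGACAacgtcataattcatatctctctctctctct
IAA4: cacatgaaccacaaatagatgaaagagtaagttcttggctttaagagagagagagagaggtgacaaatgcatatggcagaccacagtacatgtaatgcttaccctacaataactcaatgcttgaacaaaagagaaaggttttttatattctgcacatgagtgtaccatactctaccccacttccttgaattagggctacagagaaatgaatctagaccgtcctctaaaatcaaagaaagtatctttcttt
IAA19: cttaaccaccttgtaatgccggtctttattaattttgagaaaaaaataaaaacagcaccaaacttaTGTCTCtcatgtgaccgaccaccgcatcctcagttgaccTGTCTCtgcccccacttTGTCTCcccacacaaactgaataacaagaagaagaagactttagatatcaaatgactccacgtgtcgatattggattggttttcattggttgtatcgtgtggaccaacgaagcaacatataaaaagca

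The window of *IAA4*, which had the highest ratio of the Aux/IAA genes at or above 1 FPKM, held none of these motifs, which says only that the letters are not within it. A match is a match of letters and was not tested as a site.

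The other parts of the pathway were measured in the same root tips. Of the 6 receptors TIR1 and AFB1 to AFB5, none was past 1.5-fold, 5 had a ratio below 0 and the median was -0.10. *AFB1*, the highest of them, had 67.0 FPKM in *an3* and 83.8 FPKM in Col. Of the 5 co-repressors *TPL* and *TPR1* to *TPR4*, none was past 1.5-fold and all 5 had a ratio below 0, from -0.33 to -0.16. Among all rows at or above 1 FPKM, 8719 of 17229 had a ratio below 0. *TPL*, which Aux/IAA proteins recruit, had 35.7 FPKM in *an3* and 40.9 FPKM in Col. Of the 4 genes for SCF parts and the activation of SCF, none was past 1.5-fold and the median was 0.13. Of 13 auxin response genes of the GH3 and LBD families, 6 were at or above 1 FPKM, of which 1 was past 1.5-fold higher and 1 lower, beside 3.89% and 3.06% of all rows. *LBD16*, a direct target of ARF7 and ARF19 in lateral root initiation, had 4.50 FPKM in *an3* and 2.18 FPKM in Col, and *GH3.2*, for an enzyme that conjugates auxin to amino acids, had 3.92 FPKM in *an3* and 9.21 FPKM in Col. *ARF7* and *ARF19*, named above for *LBD16* alone, had log2 ratios of -0.10 and -0.02, and a link to either gene was not tested. Of the 8 ARF genes outside the members, known mainly from seeds, 6 were listed at 0 in both genotypes, and *ARF20* and *ARF21* reached at most 0.117 FPKM in *an3* and 0.290 FPKM in Col.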

How the data were processed

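RNA-seq was done on 3 *an3* and 3 Col samples of root tips, described as biological replicates. Through TuxNet, the authors used fastq-mcf of ea-utils for trimming, HISAT2 for alignment and Cufflinks for expression. Neither tool versions nor a build or annotation were found. The authors' deposited FPKM values are Cufflinks estimates, 1 for each genotype. Columns with the authors' fold change and q-value were left unused. Depth is unknown. Whether strand was used in counting is not stated, so overlapping genes cannot be told apart. A gene model overlaps 13 of the members, 11 of them on the other strand. The 9 of these at or above 1 FPKM are *IAA3*, *IAA9*, *IAA10*, *IAA11*, *IAA13*, *ARF1*, *ARF5*, *ARF7* and *ARF19*.

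From the FPKM columns, log2 ratios of *an3* over Col (pseudocount 0.1 FPKM), sums, ranks and counts past 1.5-fold among rows averaging 1 FPKM or more were computed with Python 3.11.15, pandas 2.3.3 and numpy 2.4.6, and tested on simulated data. No test across replicates was possible from these columns. Gene models, names, promoters and microRNAs were read by locus from RefSeq TAIR10.1 (all 44 members matched), using the earliest RefSeq transcript for each protein, with biopython 1.88 for alignment. No coordinates are printed because the table's build is not known. Of the table's rows, 282 hold several loci, none of them a member. Members, lists, motifs and thresholds were chosen with earlier results of these data known. Each member is named, in full *IAA4*, those past 1.5-fold, the 5 highest of a family and adjacent members. Pathway genes past 1.5-fold are named. Other members given in full, *AFB1*, *TPL*, *ARF20* and *ARF21* were added after their values were seen. Alternatives changed the pseudocount, filter, fold and scaling. The subclades and the roles of the genes are textbook background.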

Additional observations from a re-analysis of the deposited data

How the results depend on the processing

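Each value is 1 pooled FPKM per genotype, so depth and replicate error are unknown, and no replicate could be left out. No paired analysis was possible because the table holds no values of single samples. A value was taken as moved when its ratio changed by over 1.5-fold, and a count when it changed by over 1.5 times. Without a filter on low values, 2 members were past 1.5-fold higher (*IAA5* and *IAA20*) and 2 lower (*IAA6* and *IAA33*), beside 7.61% and 6.25% of the 22561 rows above 0 FPKM, and *IAA4* ranked 4 among the Aux/IAA genes. With a mean of at least 5 FPKM, 0 members were lower, since *IAA33* is then not counted, beside 1.6% of the 12597 rows of that level. At a lower threshold, a log2 ratio of 0.32 either way, 2 were higher (*IAA4* and *ARF17*) and 2 lower (*IAA33* and *ARF3*), beside 11.4% and 10.2% of all rows. Under pseudocounts of 0.01 and 1 FPKM, centring on the median, 2-fold and leaving out rows with several loci, the counts were those of the report. At 2-fold, *IAA33* alone was lower, beside 0.778% of all rows, and none was higher, beside 1.14%. The shares of all rows higher and lower were 2.58% and 1.85% with 1 FPKM added and 4.1% and 3.25% with 0.01 FPKM. They were 3.95% and 3.02% with centring, and 3.92% and 3.09% without rows of several loci. The log2 ratio of *IAA4* ran from 0.42 to 0.49 and that of *IAA33* from -1.33 to -0.93. Scaling to equal column totals was chosen after seeing the data. It turned the log2 ratio of the Aux/IAA sum from 0.05 to -0.01 and moved the median of all rows to -0.06. The log2 ratio of the ARF sum ran from -0.06 to 0.02.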
